A study of Mus musculus with 10 samples.

Results

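The protein disulphide isomerases are enzymes of the endoplasmic reticulum (ER). The genes described here are 9 of that family (Pdia3, Pdia4, Pdia5, Pdia6, P4hb, Erp29, Erp44, Txndc5 and Tmx1), read by every probe set that the platform annotation assigns to exactly 1 gene, that gene being one of the 9. This gave 15 of the array's 45101 probe sets, with 2 for each of 6 genes and 1 for each of P4hb, Pdia5 and Erp29. The family was chosen on the measured rise of Pdia6 in the spindle-chromosome complex, so the values of Pdia6 in the comparisons with that sample are given as a description, without a test.

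RNA was measured on 1-colour arrays in oocytes of female B6D2F1 mice, at the arrest in meiosis II metaphase (MII) after equine and then human chorionic gonadotropin. The spindle-chromosome complex (SCC), taken out of the oocyte by microsurgery with what lay around it, was on 3 arrays. The cytoplast, which is the oocyte left after that removal, was on 4 arrays, and the intact MII oocyte on 3. All 3 kinds of sample shared strain, hormones and 2 rounds of amplification. The labels call the arrays biological replicates, but do not say how many animals or oocytes went into each. A p-value therefore reflects the spread of these arrays, and how much of that spread is technical is not known. The design asks whether maternal transcripts are enriched at the meiotic spindle.

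Proteins that enter the ER to be secreted or placed in membranes are stabilised by disulphide bonds between cysteines. Protein disulphide isomerases form, break and reshuffle these bonds, are reoxidised by the Ero1 enzymes, and work beside chaperones such as BiP and calnexin. In the oocyte the proteins of the egg coat are rich in such bonds. Fully grown oocytes make almost no new RNA, so the transcripts measured at MII are for the most part stored maternal ones. When unfolded proteins build up in the ER, the sensors Ire1 (Ern1), Perk (Eif2ak3) and Atf6 raise many ER chaperone and isomerase genes, and Atf6 acts through a promoter element called the ER stress response element.

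The promoter of Pdia6 is shown because it was the one member promoter with that element. RefSeq promoter sequences (GRCm38.p6, 250 bases before to 50 after the start) were listed for 8 of the 9 genes (11 promoters, none for Erp29) and searched on both strands for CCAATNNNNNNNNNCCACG. It was found in the 1 promoter of Pdia6 and in 39 of 32851 promoters of that length, which is 0.119%. The sequence runs 5′ to 3′ on the + strand of chr12:17266339-17266638, with the element in capitals, starting 98 bases before the transcription start.

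Pdia6 promoter: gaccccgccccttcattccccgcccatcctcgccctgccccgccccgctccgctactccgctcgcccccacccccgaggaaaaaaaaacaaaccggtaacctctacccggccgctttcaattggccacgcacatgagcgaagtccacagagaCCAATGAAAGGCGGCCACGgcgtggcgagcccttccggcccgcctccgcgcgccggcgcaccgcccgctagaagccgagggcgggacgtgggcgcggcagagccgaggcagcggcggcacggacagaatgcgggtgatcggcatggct

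Its shorter parts were more common, and both lie within the element as well. CCAAT was found in 6 of the 11 promoters, against 37.4% of all promoters. These belonged to 5 of the 8 genes (Erp44, P4hb, Pdia3, Pdia4 and Pdia6). CCACG was found in 8 of the 11 promoters, against 32.8% of all promoters. These belonged to 6 of the 8 genes (Erp44, P4hb, Pdia4, Pdia5, Pdia6 and Txndc5). A match is a run of letters in this window and says nothing of binding in the oocyte.

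The labelled cell type was checked first. The background level of each array was the 95th percentile of 62 probe sets that belong to genes of other tissues, an intensity of 76.1 to 107. Of 15 oocyte markers measured, 14 were above it on every array. Their summed intensity was 39124 to 52494 in the SCC, 27656 to 50890 in cytoplasts and 30234 to 49446 in intact oocytes. Of 12 cumulus and granulosa cell markers measured, none was above background on every array, and their sum was 594 to 737 in the SCC, 534 to 665 in cytoplasts and 560 to 676 in intact oocytes. The ranges of both sums overlapped between groups. Marker by marker, mean values were higher in the SCC than those of cytoplasts for 14 of the 15 oocyte markers, all but Padi6, with a median log2 difference of 0.45. Of these Dppa3 (1.37-fold, adjusted p = 0.0374 by limma) and Kit (1.8-fold, adjusted p = 0.0235 by limma) passed. The cumulus and granulosa list had a median log2 difference of -0.03, and its widest was Kitl, at 158 in the SCC and 96.1 in cytoplasts (adjusted p = 0.156 by limma). Of the RNA quality controls, beta-actin's 3′ control exceeded its 5′ control, on the log2 scale, by 3.27 to 3.65 in the SCC, 3.66 to 5.29 in cytoplasts and 3.33 to 4.42 in intact oocytes, so the highest SCC array lay just below the lowest cytoplast array. For Gapdh the same difference was 2.32 to 3.23 in the SCC, 2.57 to 3.92 in cytoplasts and 3.17 to 3.36 in intact oocytes, and the SCC and cytoplast ranges overlapped. Their part in the results was not tested. The number of arrays limits the precision.

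Of the 15 probe sets, 12 passed the filter on dim values (brighter than the median of its array on 3 arrays or more). Pdia6, P4hb, Pdia5, Erp44 and Txndc5 each had a probe set above background on all arrays, and 4 genes (Pdia3, Pdia4, Erp29 and Tmx1) were above it on none. In the SCC, set against the cytoplast, P4hb, Pdia5 and Erp44 were higher by the test, beside Pdia6 by which the family was chosen, while Txndc5 did not pass. Between the cytoplast and the intact MII oocyte no member passed. Each array got the same amount of labelled RNA, so a level is relative to the RNA of its sample and is not an amount per oocyte. The plot of the 7 probe sets above background on at least 1 array shows every value.

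**Figure D1:**
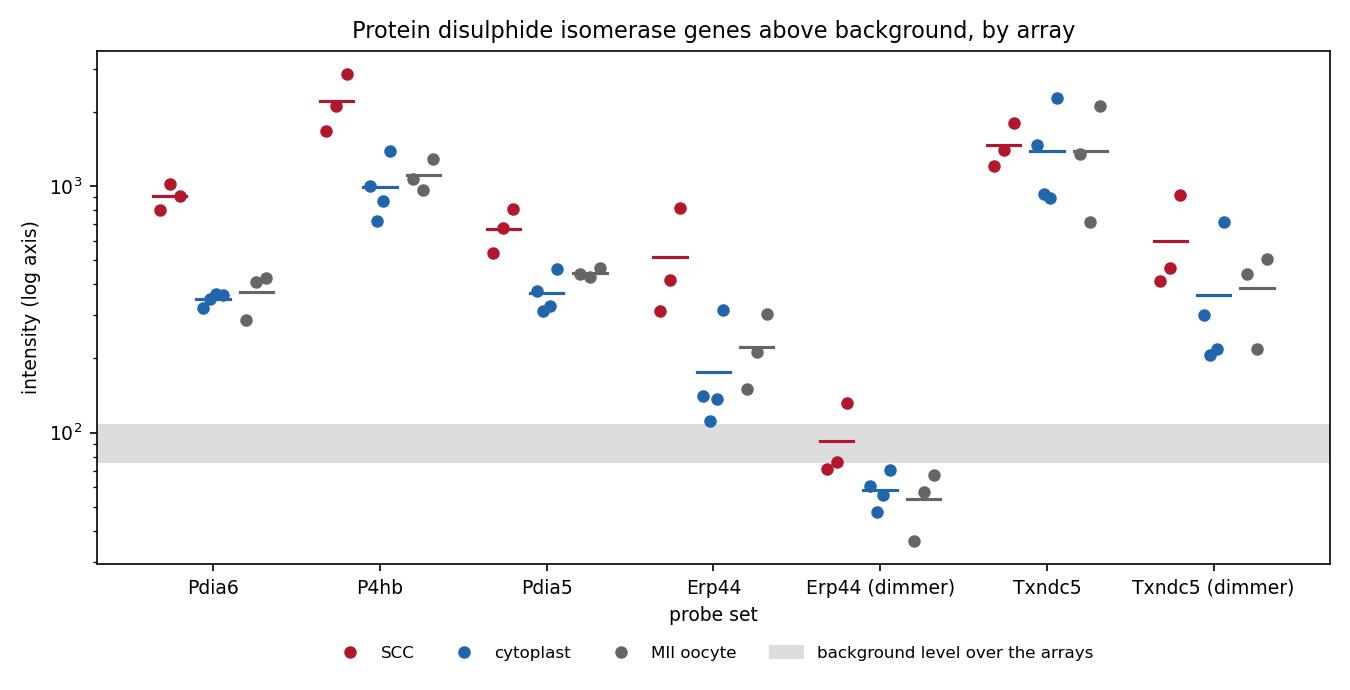
Intensity (log axis) on each of the 10 arrays of the 7 probe sets of these genes that exceeded background on at least 1 array, with SCC, cytoplast and MII oocyte side by side; points are arrays, bars are means, and the grey band is the range of the background level. Pdia6, P4hb and Pdia5 have every SCC array above every cytoplast array, whereas the Txndc5 arrays of all 3 groups intermingle.

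Pdia6, also known as P5, is an isomerase that works with BiP and dampens Ire1 signalling. Its bright probe set (1423648_at) read 804, 1021 and 909 on the 3 SCC arrays. On the 4 cytoplast arrays it read 320.05, 349.7, 365 and 363, and on the 3 MII oocyte arrays 286, 409.5 and 424. The lowest SCC array was thus far above the highest of the other 7. The log2 difference was 1.38 (SE 0.15) for the SCC against the cytoplast, which is 2.6-fold, and 1.30 (SE 0.16), or 2.47-fold, against the MII oocyte. Among all probe sets of an array, Pdia6 stood at the 95.5 to 96.1 percentile in the SCC and at the 92.5 to 93.4 percentile in cytoplasts. The second probe set of Pdia6 (1430983_at) read 15.5 to 16.1 in the SCC, 14.0 to 17.4 in cytoplasts and 14.3 to 17.7 in intact oocytes, near the array medians of 15.6 to 16.6 and never above background. It therefore gives no second reading of the change.

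P4hb is protein disulphide isomerase itself, and also serves as a subunit of prolyl 4-hydroxylase and of the microsomal triglyceride transfer protein. It read 1669, 2116 and 2848 in the SCC, against 1002, 721, 869 and 1385 in cytoplasts, with no overlap. It averaged 2211 ± 595 (SD, n = 3) on SCC arrays and 994 ± 284 (SD, n = 4) in cytoplasts, 2.23-fold higher (log2 1.16, SE 0.23, adjusted p = 0.0139 by limma). P4hb also kept its arrays apart by rank, at the 97.8 to 98.4 percentile in the SCC and the 96.1 to 97.2 percentile in cytoplasts. Without SCC replicate 2 the adjusted p was 0.0696, and without SCC replicate 3 it was 0.0824, while the call held without SCC replicate 1.

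Pdia5 is an isomerase with several active sites that has been tied to Atf6 activation in human cells. It read 535, 677 and 806.5 in the SCC, against 374, 311, 327 and 462 in cytoplasts, again without overlap. The averages were 673 ± 136 (SD, n = 3) on SCC arrays and 368 ± 67.7 (SD, n = 4) in cytoplasts, 1.82-fold higher (log2 0.87, SE 0.17, adjusted p = 0.0128 by limma). Without SCC replicate 2 or SCC replicate 3 the adjusted p was 0.0703 or 0.0749. After cyclic loess and after quantile normalization P4hb (log2 0.88 and 0.87) and Pdia5 (log2 0.63 and 0.56) still passed.

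Erp44 holds back Ero1 and unfinished client proteins by binding their cysteines in the early secretory pathway. Its brighter probe set (1423247_at) read 313, 417 and 816 in the SCC, against 141, 112, 137 and 313 in cytoplasts. Cytoplast replicate 4, at 313.34, touched the lowest SCC array, at 312.72, and the other 3 cytoplast arrays lay well below. The averages were 515 ± 266 (SD, n = 3) on SCC arrays and 176 ± 92.5 (SD, n = 4) in cytoplasts, 2.94-fold higher (log2 1.55, SE 0.39, adjusted p = 0.035 by limma). This was the widest spread of the called members, and the call was lost after cyclic loess (adjusted p = 0.0681), after quantile normalization (0.0816), and without SCC replicate 2 (0.109), SCC replicate 3 (0.178), cytoplast replicate 1 (0.101), cytoplast replicate 2 (0.106) or cytoplast replicate 3 (0.0712). The dimmer probe set of Erp44 (1423246_at) read 71.2, 76.1 and 131 in the SCC, against 60.8, 47.7, 55.9 and 70.6 in cytoplasts, and was above background on SCC replicate 3 alone. Its arrays did not overlap, but it did not pass (log2 0.62, SE 0.25, adjusted p = 0.182 by limma).

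Txndc5, known as ERp46, is an isomerase that introduces disulphides quickly and accepts oxidising power from Prdx4. Its brighter probe set (1423746_at) read 1202, 1403 and 1798 in the SCC, against 1471, 928, 892 and 2275 in cytoplasts. The groups overlapped fully, with the highest and the lowest of these values both in cytoplasts. The log2 difference was 0.17 (SE 0.37, 95% interval -0.65 to 0.99, adjusted p = 0.868 by limma). The dimmer probe set (1451091_at) read 411, 465 and 923 in the SCC, against 301, 206, 219 and 716 in cytoplasts (log2 0.84, SE 0.44, 95% interval -0.13 to 1.80, adjusted p = 0.328 by limma). Neither probe set passed, and their estimates differed in size.

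**Figure D2:**
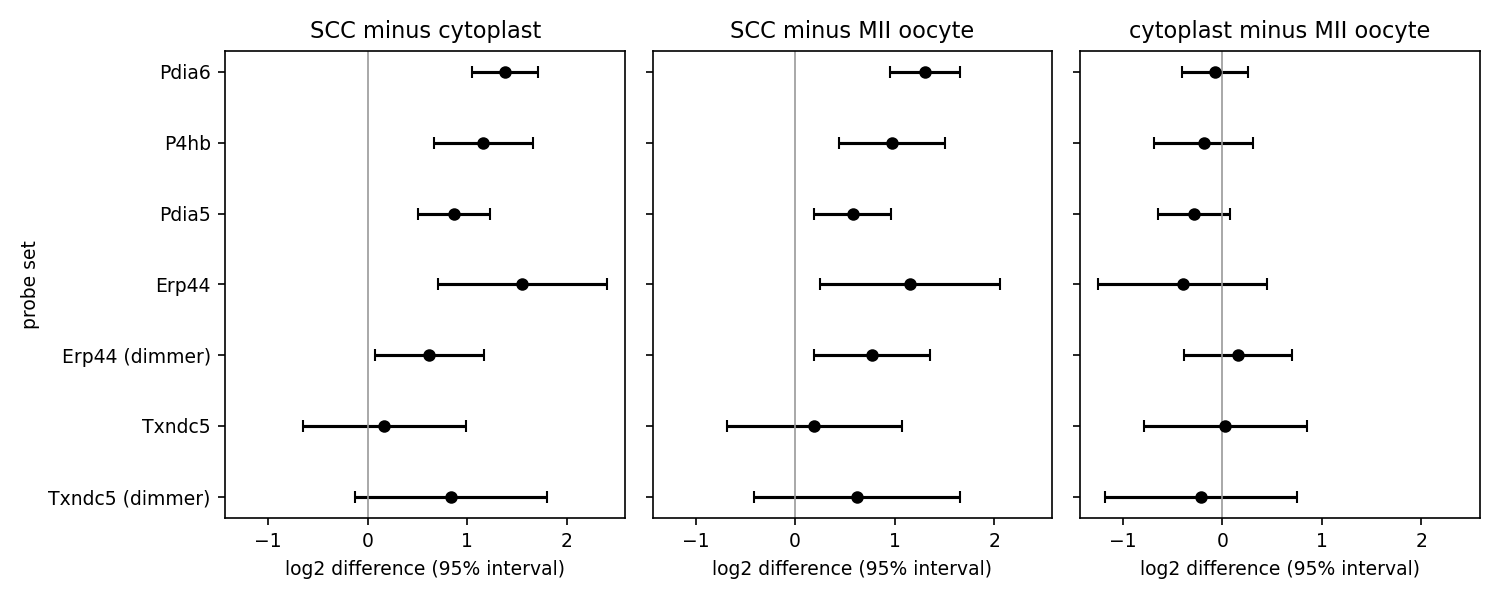
Log2 differences with 95% intervals of the same 7 probe sets for SCC minus cytoplast, SCC minus MII oocyte and cytoplast minus MII oocyte, from the fit to all arrays. P4hb, Pdia5 and Erp44 lie to the right of 0 in both comparisons of the SCC, and the Txndc5 intervals take in 0. In the last comparison every interval takes in 0. Pdia6, on whose rise the family was chosen, is drawn as a description, and its intervals in the SCC comparisons are not a test.

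Leaving out those of Pdia6, 10 probe sets of these genes were tested, of which 3 passed as higher in the SCC, set against the cytoplast, and none as lower. Without SCC replicate 2 or SCC replicate 3 none of the 10 passed. The share over the whole table of 23737 was 6.74% higher and 0.274% lower. Arrays of the 2 groups did not overlap, with the SCC higher, for 4 of the 10 (P4hb, Pdia5, the dimmer Erp44 and Erp29) and for 13.9% of all probe sets, and with the SCC lower for none of the 10 and 5.89% of all. The median log2 difference was 0.52 over the 10 probe sets and 0.01 over all probe sets tested. Read gene by gene, from the brightest tested probe set, it was 0.29 over the 8 genes other than Pdia6. Over the 15 oocyte markers, read in the same way, it was 0.45. As the family was chosen in this very contrast, these counts are a description.

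The difference between the groups depended on brightness across the whole array. The 3944 probe sets whose mean log2 intensity exceeded 8 had a median log2 difference of 0.28 toward the SCC, and of 0.02 after cyclic loess. With the values as deposited 1599 probe sets passed as higher and 65 as lower, against 505 and 121 after cyclic loess and 418 and 154 after quantile normalization. Under cyclic loess the log2 differences were 1.14 for Pdia6, 1.35 for Erp44, 0.88 for P4hb and 0.63 for Pdia5, while Txndc5 turned to -0.11. Of the 3944 bright probe sets 90% lay below 0.81 as deposited and below 0.56 after cyclic loess, and Pdia6, P4hb and Pdia5, which are among them, lay above those marks, Pdia5 by the least. The brighter Txndc5 probe set, also among the 3944, lay below both marks. The dimmer Txndc5 probe set was just above the mark as deposited. The brighter Erp44 probe set was just too dim to be among the 3944.

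**Figure D3:**
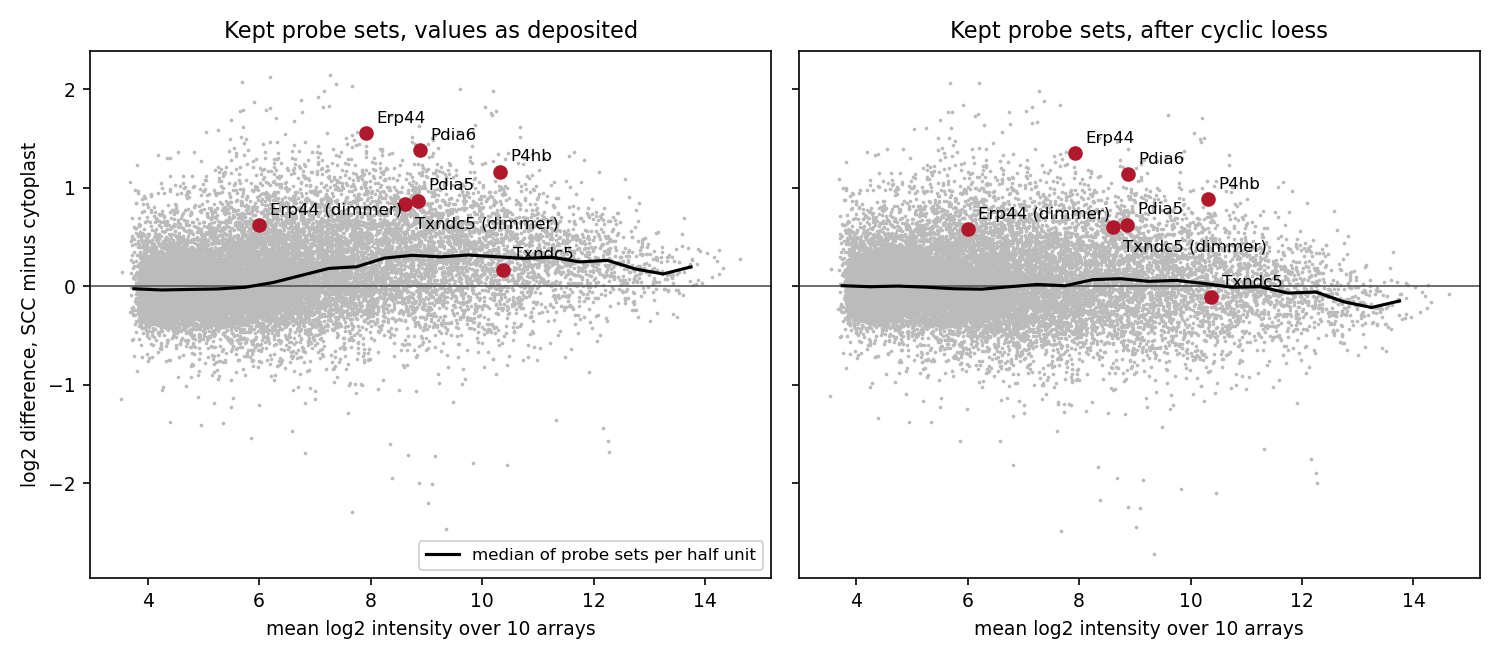
Log2 difference, SCC minus cytoplast, against mean log2 intensity for all 23737 probe sets tested (grey), with values as deposited on the left and after cyclic loess on the right; the line is the median of probe sets by brightness and the red points are the 7 probe sets of these genes. Pdia6, Erp44, P4hb and Pdia5 lie above the line in both panels, and the brighter Txndc5 probe set lies below it.

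Set against the intact MII oocyte, which holds the spindle as well as the cytoplasm, P4hb, Pdia5 and Erp44 had higher values in the SCC without passing the test. P4hb read 1669 to 2848 in the SCC, against 1072, 964 and 1284 in intact oocytes, with no overlap (log2 0.97, SE 0.24, adjusted p = 0.143 by limma). Pdia5 read 535 to 806.5 in the SCC, against 441, 427 and 464 in intact oocytes (log2 0.58, SE 0.18, adjusted p = 0.208 by limma), also with no overlap. Erp44 read 313 to 816 in the SCC, against 149.9, 213 and 303 in intact oocytes (log2 1.15, SE 0.41, adjusted p = 0.278 by limma), where the groups came close without touching. Txndc5 read 1202 to 1798 in the SCC, against 1344, 714 and 2106 in intact oocytes, which overlapped (log2 0.19, SE 0.40, adjusted p = 0.901 by limma). None of the 10 probe sets outside Pdia6 passed by limma, while 0.0421% of all probe sets passed as higher and 0% as lower. At an unadjusted p under 0.05 by limma, 5 of the 10 were higher and none lower. Of all 23737 probe sets, 2039 were higher and 832 lower at that level. Arrays did not overlap, with the SCC higher, for 5 of the 10 and for 8.71% of all probe sets. The 5 were P4hb, Pdia5, both probe sets of Erp44, and Erp29, which was below background on every array. With the SCC lower this held for none of the 10 and 5.34% of all. This comparison and the one with the cytoplast share the SCC arrays.

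The cytoplast set against the MII oocyte asks what the removal left behind, and no member differed past the threshold. No probe set of any gene passed by limma (0% higher and 0% lower of 23737), and at an unadjusted p under 0.05 there were 276 higher and 778 lower, with none of the 12 among them. The arrays of all 12 overlapped, against 1.89% of all probe sets with the cytoplast higher and 3.83% with it lower. Pdia6 averaged 349 ± 20.6 (SD, n = 4) in cytoplasts and 373 ± 75.8 (SD, n = 3) in intact oocytes, a log2 difference of -0.08 (95% interval -0.41 to 0.25). For P4hb the averages were 994 ± 284 in cytoplasts and 1107 ± 163 in intact oocytes (log2 -0.19, 95% interval -0.69 to 0.31). The arrays of both genes overlapped between these groups. For Pdia5 they were 368 ± 67.7 in cytoplasts and 444 ± 18.8 in intact oocytes (log2 -0.29, 95% interval -0.65 to 0.08). For Erp44 they were 176 ± 92.5 in cytoplasts and 222 ± 76.7 in intact oocytes (log2 -0.40, 95% interval -1.25 to 0.45). The order of the means was therefore SCC, MII oocyte, cytoplast for Pdia6, P4hb, Pdia5 and the brighter Erp44 probe set, and the last 2 of that order did not differ beyond their spread. That order is not particular to these genes. The 3944 bright probe sets had median log2 differences of 0.12 for the SCC and -0.18 for the cytoplast, each against the MII oocyte. After cyclic loess these medians were 0.008 and -0.020, and Pdia6 changed sign for the cytoplast, as given in the closing section.

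Several of these genes were high on the same single arrays. The controls spiked in at hybridisation were brightest on SCC replicate 3, cytoplast replicate 4 and MII oocyte replicates 2 and 4 (mean log2 level 10.87 to 11.08), and lower on the other 6 arrays (9.62 to 10.42). In each group these arrays also held the highest values of P4hb, of Pdia5 and of both Txndc5 probe sets, a pattern found after the values were seen. The brighter Txndc5 probe set read 1798, 2275, 1344 and 2106 on these 4 arrays and 714 to 1471 on the other 6. Pdia6 did not follow them, with its highest SCC value on replicate 2. With the control level as a covariate the dimmer Txndc5 probe set passed for the SCC against the cytoplast (log2 0.90, SE 0.19, adjusted p = 0.0111 by limma), and the brighter one did not (log2 0.22, SE 0.19, adjusted p = 0.538 by limma). P4hb (log2 1.11, adjusted p = 0.0164) and Pdia5 (log2 0.67, adjusted p = 0.0466) then also passed against the MII oocyte. Calls over all probe sets rose with this covariate too, in both comparisons of the SCC, with the counts given in the closing section. Within the arrays of lower control level the SCC stood above the cytoplast by 1.39 (log2) for Pdia6, 1.13 for P4hb, 0.84 for Pdia5 and 1.48 for the brighter Erp44 probe set (2 and 3 arrays). Between the single brighter arrays the differences were 1.33, 1.04, 0.81 and 1.38. For the brighter Txndc5 probe set the 2 differences were 0.28 and -0.34, of opposite sign. For the dimmer Txndc5 probe set they were 0.87 and 0.37, and for the dimmer Erp44 probe set 0.43 and 0.90.

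**Figure D4:**
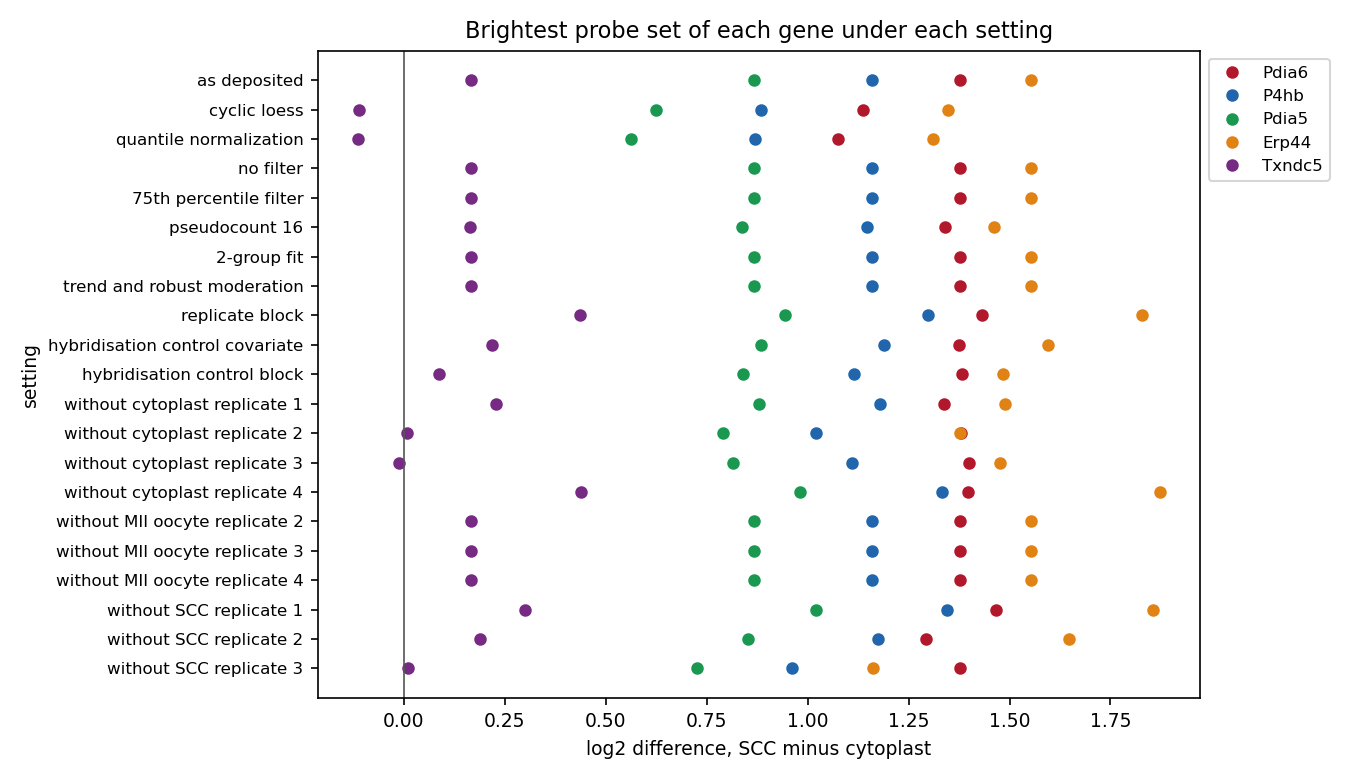
Log2 difference, SCC minus cytoplast, of the brightest probe set of each of the 5 genes above background, under each processing setting and with each array left out in turn. Pdia6 lies between 1.08 and 1.47 throughout, Erp44 ranges from 1.16 to 1.87, and Txndc5 falls on both sides of 0.

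The probe sets of the remaining 4 genes stayed below background throughout, so no fold is given for them. Whether these probe sets can read the transcripts present in the oocyte was not checked here, and a low reading does not show that a gene is silent. Pdia3, or ERp57, folds glycoproteins together with calnexin and calreticulin, and its probe sets read 18.2 to 30.2 and 6.75 to 9.42 in the SCC, 21.3 to 29.5 and 8.25 to 10.5 in cytoplasts, and 21.9 to 26.6 and 7.52 to 10.5 in intact oocytes. Pdia4, or ERp72, read 17.9 to 20.8 and 9.54 to 11.2 in the SCC, 18.8 to 23.9 and 10.6 to 11.8 in cytoplasts, and 17.5 to 27.3 and 9.61 to 13.3 in intact oocytes. Both genes overlapped between all groups. Tmx1, an isomerase anchored in the ER membrane, read 11.0 to 16.2 and 7.10 to 8.45 in the SCC, 10.8 to 13.2 and 7.29 to 8.05 in cytoplasts, and 10.3 to 19.8 and 6.71 to 7.19 in intact oocytes. Erp29, a family member without the usual pair of active cysteines, read 24.1, 23.8 and 24.1 in the SCC, against 14.3, 17.6, 22.0 and 18.5 in cytoplasts and 17.2, 17.0 and 14.4 in intact oocytes. Every SCC array of Erp29 was the higher one, yet all lay far below background, and it did not pass against the cytoplast (adjusted p = 0.109 by limma) or the MII oocyte (adjusted p = 0.166).

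**Figure D5:**
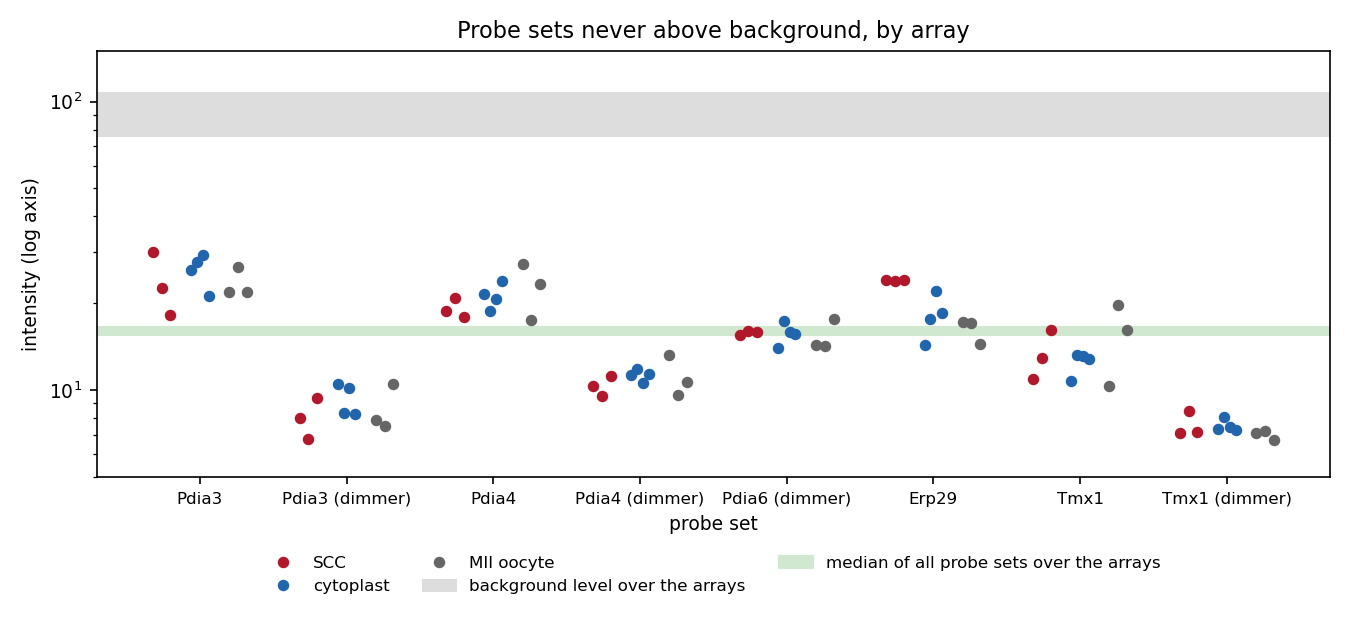
Intensity (log axis) on each array of the 8 probe sets never above background, with the range of the background level in grey and that of the array medians in green. All points lie between 6.71 and 30.2, below the background range of 76.1 to 107, and the 3 SCC arrays of Erp29 lie together above the other groups.

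Other genes of ER protein folding were read from 6 lists, of which 80 genes were tested against the cytoplast. In the SCC 19 of the 80 were higher and none lower, with a median log2 difference of 0.18, against 6.74% of all probe sets higher and a median of 0.01. These shares are not like for like. Each listed gene was read from its brightest tested probe set, and bright probe sets had a median of 0.28 toward the SCC. For the oocyte markers 2 of 15 were higher, with the median of 0.45 given above. The 19 came down to 11 after cyclic loess, 10 after quantile normalization, and 4 without SCC replicate 2 or without SCC replicate 3. Calls over all probe sets fell as well, from 1599 as deposited to the counts given above for these 2 normalizations. With an array left out they were as few as 243, so such drops are not particular to these genes. Of the pathway genes named here, those that passed without either were Atf6, Dnajc3, Dnajb11 and Edem1. Against the MII oocyte none of them passed.

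Of 9 further isomerase family genes tested, 1 was higher. This was Dnajc10, or ERdj5, a reductase that opens disulphides of proteins on their way to degradation, at 945 ± 166 (SD, n = 3) on SCC arrays and 438 ± 129 (SD, n = 4) in cytoplasts (2.21-fold, adjusted p = 0.0137 by limma). It missed the threshold without SCC replicate 3 (adjusted p = 0.0842). Of 9 genes of thiol oxidation and reduction 1 was higher, the selenoprotein Selenof (1.55-fold, adjusted p = 0.0483 by limma), which was lost after cyclic loess (adjusted p = 0.126). Of 4 partner proteins of isomerases none passed. Those named here, Tapbp (16.4 in the SCC and 19.8 in cytoplasts) and P4ha3 (16.01 in the SCC and 14.2 in cytoplasts), were both below background.

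Among 28 ER chaperones and glycoprotein folding genes 8 were higher and none lower, with a median log2 difference of 0.14. Dnajc3, a co-chaperone of BiP that also restrains Perk, was at 1776 ± 282 (SD, n = 3) on SCC arrays and 747 ± 93.9 (SD, n = 4) in cytoplasts, 2.37-fold higher (adjusted p = 0.00234 by limma). Calr3, a calreticulin-like chaperone, was above background on all SCC arrays and no cytoplast array, averaging 136 and 50.8, so at least 1.47-fold higher (adjusted p = 0.0143 by limma, and 0.0838 without SCC replicate 3). Dnajb11 (adjusted p = 0.00637) and Manf (adjusted p = 0.0144) also passed but were below background in both groups. The best known chaperones, named after their values were seen, did not pass: BiP (Hspa5) had a log2 difference of 0.09 (adjusted p = 0.721), Hsp90b1 of -0.17 (adjusted p = 0.857) and Canx of 0.09 (adjusted p = 0.815). The BiP value came from a probe set that may also read related sequences.

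Of 16 genes of ER-associated degradation, which clears misfolded proteins, 3 were higher, with a median of 0.11. Edem1, which recognises trimmed glycoproteins, was at 303 ± 43.4 (SD, n = 3) on SCC arrays and 155 ± 12.7 (SD, n = 4) in cytoplasts (1.95-fold, adjusted p = 0.00453 by limma). Its relative Edem3 was 2.14-fold higher (adjusted p = 0.0134, and 0.055 after cyclic loess), and the ubiquitin ligase Syvn1 2.56-fold (adjusted p = 0.0124, and 0.0749 without SCC replicate 3).

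Of 14 genes of the unfolded protein response 6 were higher, with a median of 0.35. Atf6 was at 415 ± 41.97 (SD, n = 3) on SCC arrays and 187 ± 21.4 (SD, n = 4) in cytoplasts, 2.22-fold higher (adjusted p = 0.00234 by limma, and 0.0212 without SCC replicate 3). The proteases that release Atf6 from the membrane, Mbtps2 (1.81-fold, adjusted p = 0.0107) and Mbtps1 (1.63-fold, adjusted p = 0.0169), were higher too, and both missed the threshold after cyclic loess (adjusted p = 0.0968 and 0.0744). Eif2ak3, the sensor Perk, was 2.14-fold higher (adjusted p = 0.0128 by limma), above background on 2 of 4 cytoplast arrays, and lost without SCC replicate 3 (adjusted p = 0.078). Its probe set may also read related sequences.

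The genes whose pattern was most like that of Pdia6 over the 10 arrays were sought among the 20231 single-gene probe sets tested. They were Atad2, a chromatin-binding ATPase (Pearson r = 0.984 of log2 values), Aebp2, a cofactor of the polycomb complex PRC2 (0.978), Rps14, a ribosomal protein (0.978, from a probe set that may also read related sequences), Fmr1nb (0.977) and Gxylt1, a xylosyltransferase (0.977). Their log2 differences, SCC minus cytoplast, were 2.06, 0.69, 0.92, 0.86 and 1.01. Within the family r with Pdia6 was 0.856 for P4hb, 0.843 for Pdia5, 0.813 for Erp44 and 0.156 for Txndc5 (brighter probe sets). These ranked 792, 930, 1230 and 8378 of the 20231, so many genes outside the family were more like Pdia6. Among the dim genes r was 0.765 for Erp29, 0.175 for Tmx1, -0.24 for Pdia3 and -0.50 for Pdia4. The 10 arrays fall into 3 groups, of which the SCC is the high one for each gene named here as most like Pdia6.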

How the data were processed

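Oocytes were taken 16 h after 5 IU of human chorionic gonadotropin, which followed the equine hormone by 48 h, per the labels' protocols. Also per the labels, up to 50 ng of total RNA was amplified, and 10 µg of labelled cRNA was hybridised. The authors' deposited values are linear intensities of 45101 probe sets, made with RMA per the submitters' processing notes, with settings not given in the sources used here. Array medians were alike (15.6 to 16.6), but the 95th percentile was 623 to 797 in the SCC, 526 to 634 in cytoplasts and 568 to 711 in intact oocytes, so it is not settled whether all arrays were normalized together, and folds and counts of calls depend on it. With amplification and a fixed cRNA load, values are relative amounts within a sample.

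From these, log2 was taken, 64 controls were left out, and limma 3.58.1 (R 4.3.3) was fitted to the 23737 probe sets brighter than their array's median on 3 or more arrays, with 1 mean per group, default moderation and Benjamini-Hochberg adjustment over all of them at 0.05. The test was run on simulated data with independent noise for each probe set and array. That check does not cover effects shared across an array, such as the shift with brightness described above. Genes were named from the platform annotation where a probe set had 1 gene (34945 probe sets, against 932 with several and 9160 with none), with symbols updated by gene ID through the RefSeq table of GRCm38.p6 (34741 probe sets matched). A gene of a list was read from its tested probe set with the highest mean. Members and lists were chosen with earlier results of these data known. Text names all members, up to 4 passing genes per pathway list by p (or 2 where none passed), and the 5 genes most like Pdia6.

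Same-numbered arrays are not stated to share a pool, and their residuals correlated at 0.0214 on average over 8 pairs (-0.304 to 0.614), so no pairing was used. Alternatives were cyclic loess, quantile normalization, 2 other filters, an added pseudocount of 16, 2-group fits, trended robust moderation, a replicate block, the hybridisation control level as covariate or (added after seeing the data) as a block, and leaving out each array.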

Additional observations from a re-analysis of the deposited data

Results flagged for a closer look

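Erp44 on cytoplast replicate 4 stood apart in its group, at an intensity of 313.34 for the brighter probe set, with the next cytoplast array at 141.13. Tmx1 on cytoplast replicate 1 stood apart on the low side, at 10.76 with the next array at 12.83, both far below background. In each case the gap to the nearest array took up more of the group's range (0.855 and 0.848) than Dixon's 95% critical value for 4 arrays. Only the cytoplast group is large enough for this check, and chance alone gives about 1 such case in 20 groups, with 15 probe sets looked at here.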

How the results depend on the processing

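P4hb, Pdia5 and both Erp44 probe sets stayed higher in the SCC, set against cytoplasts and intact oocytes, under every alternative run. So did the bright probe set of Pdia6, which is a description only, as the family was chosen on its rise. Of the 10 probe sets outside Pdia6, 3 passed against the cytoplast, and 0 to 3 with an array left out (0 without SCC replicate 2 or 3). Against the MII oocyte 0 passed by limma, and 0 with any array left out. There 1 passed with the replicate block, 2 with the hybridisation control covariate and 4 with the control level as a block. At an unadjusted p under 0.05 by limma 5 were higher, against 2039 of all 23737 probe sets.

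Over all probe sets, 1599 were higher in the SCC against the cytoplast, 505 after cyclic loess, 418 after quantile normalization, 2732 with the control covariate, 2525 with the control block, and 243 to 2044 with an array left out. Lower ones numbered 65, then 121 after cyclic loess, 154 after quantile normalization, 43 with the pseudocount, 185 in the 2-group fit, 110 with the replicate block, 285 with the covariate, 251 with the control block, and 1 to 191 with an array left out. Against the MII oocyte 10 were higher, 6 after quantile normalization, 16 with no filter, 25 with the pseudocount, 0 in the 2-group fit, 125 with the replicate block, 295 with the covariate, 308 with the control block, and 0 to 444 with an array left out. There 0 were lower, 14 with the replicate block, 14 with the covariate, 19 with the control block, and 0 to 253 with an array left out. For the cytoplast against the MII oocyte the count stayed 0 throughout. The causes were not tested.

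Signs turned only for differences that had not passed. For the cytoplast against the MII oocyte, Pdia6 turned to 0.071 after cyclic loess and 0.085 after quantile normalization (-0.26 to 0.027 with an array left out), P4hb to 0.035 with the control block, the dimmer Txndc5 probe set to 0.049 with the covariate and 0.31 with the control block (-0.61 to 0.018 with an array left out), the brighter Txndc5 probe set ran from -0.38 to 0.40 and the dimmer Erp44 from -0.10 to 0.34. For the SCC against the cytoplast the brighter Txndc5 probe set turned to -0.11 after both cyclic loess and quantile normalization and ran from -0.011 to 0.44 with an array left out, and against the MII oocyte from -0.22 to 0.56. With the replicate block the brighter Erp44 probe set also passed against the MII oocyte (log2 1.61, adjusted p = 0.0394) and the dimmer one against the cytoplast (log2 0.74, adjusted p = 0.0369). Without the filter or with the pseudocount Erp44 missed the threshold against the cytoplast (adjusted p = 0.0552 for each). Signal over background limits the text to 5 of the 9 genes.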
